A study of Mus musculus with 3 samples.

Results

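Selenoproteins are enzymes and redox proteins that carry selenocysteine, an amino acid written in the messenger RNA as UGA, a codon that elsewhere ends translation. Decoding needs a stem-loop in the 3′ untranslated region and a dedicated set of factors, among them the binding protein Secisbp2 and the elongation factor Eefsec. When the UGA is read as a stop and lies well before the last exon-exon junction, the transcript can be degraded by nonsense-mediated decay (NMD), a surveillance pathway that acts on RNAs being translated. Gpx1 is a textbook example of a selenoprotein transcript that is lost in this way when selenium is scarce. Cycloheximide, an inhibitor of translation elongation, also blocks NMD.

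Described here are 10 selenoprotein genes out of the 32285 genes listed, chosen by symbol: Gpx1, Gpx4, Selenow, Selenoh, Selenof, Selenot, Selenok, Selenos, Msrb1 and Txnrd2. Each symbol had a single identifier. Their levels were followed in E14, a widely used line of mouse embryonic stem cells, kept here in serum with leukemia inhibitory factor. The groups were 1 library of cells exposed to ethanol alone for 6 h (the control), 1 library after 3 h and 1 library after 6 h of 250 µg/mL cycloheximide, each in 0.007% ethanol and begun 24 h after seeding. All cells were detached and put in freezing medium before single-cell barcoding with 10x Genomics 3′ chemistry. There was no ethanol control of 3 h, and the selenium content of the medium is not given in the sources used here.

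Each group is 1 library, which allows no test of the conditions, so every difference below compares libraries. Intervals are 95% and cover counting error only. They leave out the variation between cultures, treatments and library preparations. Cells were barcodes with at least 15000 unique molecular identifiers (UMIs, each marking 1 captured RNA molecule) and with 1 to 20% mitochondrial UMIs. These were 2187 control cells, 1739 cells after 3 h and 2554 cells after 6 h, holding between 106842407 and 140321458 UMIs per library. Median UMIs per cell ran from 43160 to 51726, and at most 3 barcodes were shared by any pair of libraries. All 9 stem cell markers examined were detected in every library, with summed levels of 7201, 8165 and 7281 CPM (UMIs of a gene scaled to a common library total) in the control, after 3 h and after 6 h. Most of each sum came from the highest single marker, which held 4771, 5327 and 5475 CPM. Markers of fibroblasts summed to at most 2.93 CPM, those of primitive endoderm to at most 12.1, those of mesoderm to at most 6.81 and those of 2-cell-like cells to at most 0.592. Neural markers summed to 84.0, 56.4 and 34.5 CPM in that order, of which the highest single marker held 65.3, 35.1 and 18.6 CPM. Mitochondrial genes held 4.57%, 3.51% and 2.94% of UMIs. The part of either in the results was not tested.

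The position of the selenocysteine codon was read from the GENCODE M21 annotation of GRCm38, using 1 reference transcript per gene. By textbook, a stop codon more than about 55 bases before the last junction can be recognised as premature. Of the 10 genes, 7 had the UGA further upstream than that. The distance was 470 bases in Selenot, 342 in Gpx4, 243 in Selenow, 136 in Selenoh, 105 in Gpx1, 83 in Txnrd2 and 78 in Selenof. In Msrb1 the distance was 34 bases and in Selenok 5 bases. In Selenos the codon lay in the last exon, 80 bases after the junction (-80), as residue 189 of 190. Other annotated transcripts gave 28 bases for Selenof, 66 for Msrb1 and -124 for Txnrd2, so these genes cross the limit between isoforms. Selenok, Selenos and Txnrd2 each had 1 annotated transcript of the NMD class, and the other members had none. Counts per gene do not tell transcripts apart.

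The codon contexts below are shown because they contrast transcripts in which the UGA sits early, inside the coding sequence, with transcripts in which it sits at the end. Each is coding sequence of the GENCODE M21 reference transcript, 5′ to 3′ on the strand of the gene, with the selenocysteine codon in capitals, up to 24 bases on either side and the true stop codon as the last 3 bases where it falls within that window. The codons lie at chr9:108339451-108339453 (Gpx1, plus strand), chr10:80054737-80054739 (Gpx4, plus), chr2:84670381-84670383 (Selenoh, minus), chr3:58585238-58585240 (Selenot, plus), chr14:29973440-29973442 (Selenok, plus), chr7:66088844-66088846 (Selenos, plus) and chr10:82896037-82896039 (Txnrd1, plus).
Gpx1: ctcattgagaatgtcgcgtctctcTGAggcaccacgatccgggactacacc
Gpx4: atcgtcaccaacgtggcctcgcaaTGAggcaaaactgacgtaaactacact
Selenoh: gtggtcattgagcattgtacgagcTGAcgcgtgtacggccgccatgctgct
Selenot: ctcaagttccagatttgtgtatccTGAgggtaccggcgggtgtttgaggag
Selenok: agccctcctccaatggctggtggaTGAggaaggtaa
Selenos: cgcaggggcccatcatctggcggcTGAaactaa
Txnrd1: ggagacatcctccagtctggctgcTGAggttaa

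In Selenok, Selenos and Txnrd2 the UGA was followed by the true stop codon after at most 6 bases. Txnrd1, a related gene outside the 10, has the same arrangement, with residue 498 of 499. A cysteine codon stood 3 codons before the UGA in Selenow, Selenoh and Selenot, and 2 codons before it in Selenof, the spacing of the redox motif of thioredoxin-like selenoproteins. The base after the UGA, which is known to affect how efficiently a stop codon is read, was G in 6 of the 10 genes, A in Selenof, Selenos and Msrb1, and C in Selenoh.

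Together the 10 genes made up 2540 CPM in the control, 2513 after 3 h and 2649 after 6 h. Their total was therefore close to level by CPM. Its log2 ratios to the control were -0.016 after 3 h (-0.023 to -0.0079) and 0.061 after 6 h (0.054 to 0.068). Most of the sum came from Gpx4, Selenoh and Gpx1, with 28.2%, 25.5% and 21.0% of it in the control. Leaving Selenos out, the summed log2 ratio was 0.0036 after 6 h (-0.0036 to 0.011) and -0.053 after 3 h.

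**Figure D1:**
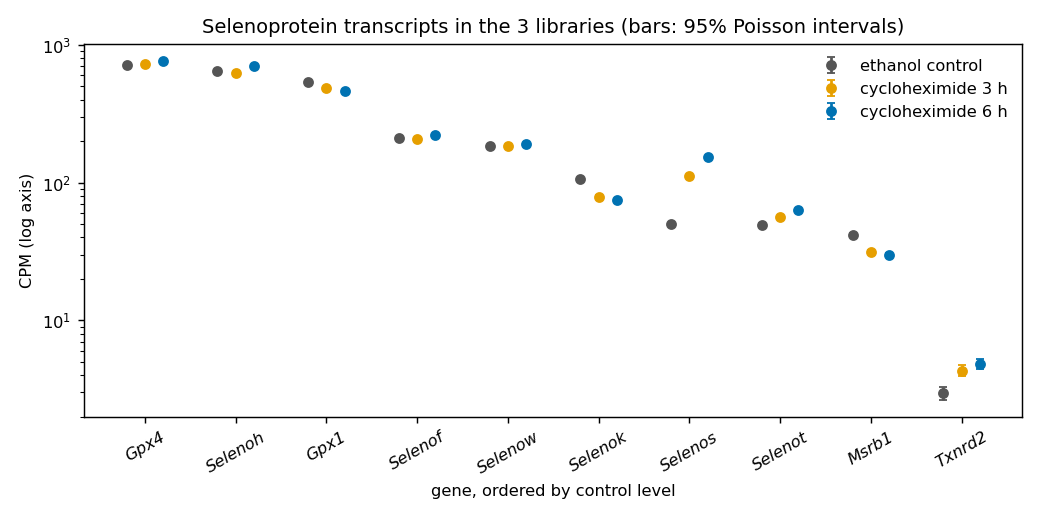
Level of each of the 10 genes (vertical axis, CPM on a log scale) in the ethanol control, after 3 h and after 6 h of cycloheximide, with genes in order of their control level and bars for 95% Poisson intervals. Selenos climbs from 49.7 to 152 CPM and passes Selenok, while the 5 most abundant genes keep their order.

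Since 1 UMI marks one 3′ end, CPM here does not scale with transcript length. Differences between genes in capture or in shared reads were not examined, so the order below is an order of counts. In all 3 libraries the order began with Gpx4, followed by Selenoh, Gpx1, Selenof and Selenow. In the control Selenok came next, then Selenos and Selenot, whose intervals overlapped, then Msrb1 and Txnrd2. In both cycloheximide libraries Selenos stood sixth, above Selenok. No other neighbours in the order had overlapping intervals.

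Members were counted as higher or lower where the log2 ratio of CPM was at least 0.5 in size, among genes whose mean CPM over the libraries reached 10. This floor left 9 of the 10 members, without Txnrd2. After 3 h, 1 of the 9 (Selenos) was at or above 0.5, against 17.9% of all 7608 genes above the floor, and 0 were at or below -0.5, against 3.21%. After 6 h, 1 of the 9 (Selenos) was at or above 0.5, against 26.6% of all genes, and 1 (Selenok) was at or below -0.5, against 9.69%. Between 6 h and 3 h none of the 9 passed either limit, against 3.23% of all genes for higher and 3.68% for lower. The median log2 ratio of the 9 was -0.0088 after 3 h and 0.073 after 6 h, while that of all genes was 0.11 and 0.17. The comparisons after 3 h and 6 h share the control library.

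The scaling decides where 0 lies. With TMM factors every log2 ratio shifted by -0.17 after 3 h and -0.29 after 6 h, and the all-gene medians became -0.063 and -0.12. With mean UMIs per cell they shifted by 0.27 and 0.11. The difference from the all-gene median, which no such shift changes, is therefore given for the members described most fully. Under TMM factors Msrb1 joined Selenok at or below -0.5 at both times, giving 2 lower members at each. With the same factors, 618 of all 7608 genes above the floor were at or below -0.5 after 3 h and 1633 after 6 h.

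The glutathione peroxidases Gpx1 and Gpx4 use glutathione to reduce peroxides. Gpx4 acts on lipid hydroperoxides in membranes and is required to prevent ferroptosis, and Gpx1 is the main cytosolic form. Gpx4 (ENSMUSG00000075706, chromosome 10, 80047166 to 80056439) was the most abundant member, with 716 CPM in the control, 724 after 3 h and 759 after 6 h. The log2 ratio of Gpx4 was 0.017 after 3 h (0.0025 to 0.031) and 0.085 after 6 h (0.072 to 0.099), and turned negative under TMM factors. It lay 0.095 below the all-gene median after 3 h (-0.095) and 0.081 below it after 6 h (-0.081).

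Gpx1 (ENSMUSG00000063856, chromosome 9, 108338903 to 108340343) had 533 CPM in the control, 489 after 3 h and 460 after 6 h (459.6). Its control level was the highest of the 3 and its Poisson intervals did not overlap between libraries. The log2 ratio of Gpx1 was -0.12 after 3 h (-0.14 to -0.11) and -0.21 after 6 h (-0.23 to -0.20). By mean UMIs per cell the 3 h ratio was 0.15, so its sign there depends on the scaling, whereas after 6 h it was below 0 under every setting. Relative to the all-gene median Gpx1 stood at -0.24 and -0.38, and 21.7% and 21.5% of all genes had a lower ratio after 3 h and 6 h. Its UGA, 105 bases before its only junction, is in the coding sequence printed above.

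The thioredoxin-like members Selenow, Selenoh, Selenof and Selenot were also near level. Selenow is a small cytosolic protein, Selenoh a nucleolar DNA-binding redox protein, Selenof a partner of the glycoprotein folding sensor UGGT in the endoplasmic reticulum, and Selenot an oxidoreductase of the endoplasmic reticulum membrane. Selenoh (ENSMUSG00000076437) had 648 CPM in the control, 625 after 3 h and 697 after 6 h, the lowest value being after 3 h. Selenoh overlaps the annotated gene Gm28635 on the same strand by 1556 bases, and that gene has no row in the matrices. Selenof (ENSMUSG00000037072) had 209 CPM in the control, 209 after 3 h (208.6) and 220.0 after 6 h. Selenow (ENSMUSG00000041571) had 184, 183 and 189 CPM in the same order. After 6 h the log2 ratios of these 3 genes ran from 0.037 to 0.10, and all of them turned negative under TMM factors.

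Selenot (ENSMUSG00000075700, chromosome 3, 58576636 to 58593133) differed somewhat more than these, with 49.3 CPM in the control (48.0 to 50.6), 56.0 after 3 h (54.6 to 57.5) and 63.1 after 6 h (61.8 to 64.4). The 3 values stood in order of exposure without overlap of their intervals. The log2 ratio of Selenot was 0.19 after 3 h (0.13 to 0.24) and 0.36 after 6 h (0.31 to 0.41), under the limit of 0.5 at both times. Relative to the all-gene median it was 0.074 and 0.19. Selenot has the longest distance from UGA to junction of the 10 genes.

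Selenos and Selenok are membrane proteins of the endoplasmic reticulum that take part in the removal of misfolded proteins, Selenos by linking the p97 ATPase to the retrotranslocation machinery. The 2 genes went in opposite directions. Selenos (ENSMUSG00000075701, chromosome 7, 66079649 to 66089405) stood at 49.7 CPM in control cells (48.4 to 51.0), 112 after 3 h (110 to 114) and 152 after 6 h (150.3 to 154). Its level was 2.25-fold the control level after 3 h (2.18 to 2.32) and 3.06-fold after 6 h (2.98 to 3.16), log2 ratios of 1.17 and 1.62. Relative to the all-gene median Selenos stood at 1.06 and 1.45. Among all genes above the floor, 97.1% had a lower ratio after 3 h and 97.5% after 6 h. Between 6 h and 3 h the log2 ratio of Selenos was 0.45 (0.41 to 0.48), higher than for 95.2% of genes. Over all settings the ratio to control ran from 0.99 to 1.44 after 3 h and from 1.33 to 1.72 after 6 h. Among RNA outside cells, measured in barcodes of 10 to 100 UMIs, Selenos had 35.3 CPM in the control, 77.2 after 3 h and 96.9 after 6 h.

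Selenok (ENSMUSG00000042682, chromosome 14, 29968308 to 29975662) stood at 107 CPM in control cells (105 to 109), 79.2 after 3 h (77.5 to 80.9) and 74.5 after 6 h (73.1 to 76.0). The control was high and the 2 cycloheximide libraries were close to each other. The log2 ratio of Selenok was -0.43 after 3 h (-0.47 to -0.39) and -0.52 after 6 h (-0.56 to -0.48), with 4.56% and 9.11% of genes lower. Relative to the all-gene median Selenok stood at -0.54 and -0.69, beyond -0.5 at both times. It was negative under every setting, from -0.61 to -0.16 after 3 h and from -0.81 to -0.41 after 6 h. In the printed sequences 6 bases separate the UGA from the true stop codon in Selenok and 3 bases in Selenos.

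Msrb1 (ENSMUSG00000075705, chromosome 17, 24736642 to 24742778), a methionine sulfoxide reductase of cytosol and nucleus, followed the pattern of Selenok. It had 41.6 CPM in the control (40.4 to 42.8), 31.6 after 3 h (30.5 to 32.6) and 29.7 after 6 h (28.8 to 30.6). The log2 ratio of Msrb1 was -0.40 after 3 h (-0.46 to -0.33) and -0.49 after 6 h (-0.55 to -0.42), or -0.51 and -0.65 relative to the all-gene median, where it too was beyond -0.5. It was negative under every setting, with values from -0.57 to -0.13 after 3 h and from -0.77 to -0.38 after 6 h.

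Txnrd2 (ENSMUSG00000075704, chromosome 16, 18426384 to 18479073), the mitochondrial thioredoxin reductase, was the rarest member and lay under the floor in all libraries. The control held 330 UMIs of it, 2.96 CPM (2.65 to 3.30), against 461 UMIs, 4.31 CPM (3.93 to 4.73), after 3 h and 678 UMIs, 4.83 CPM (4.47 to 5.21), after 6 h. The log2 ratio of Txnrd2 was 0.54 after 3 h (0.34 to 0.75) and 0.71 after 6 h (0.51 to 0.90), becoming 0.37 and 0.42 under TMM factors.

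**Figure D2:**
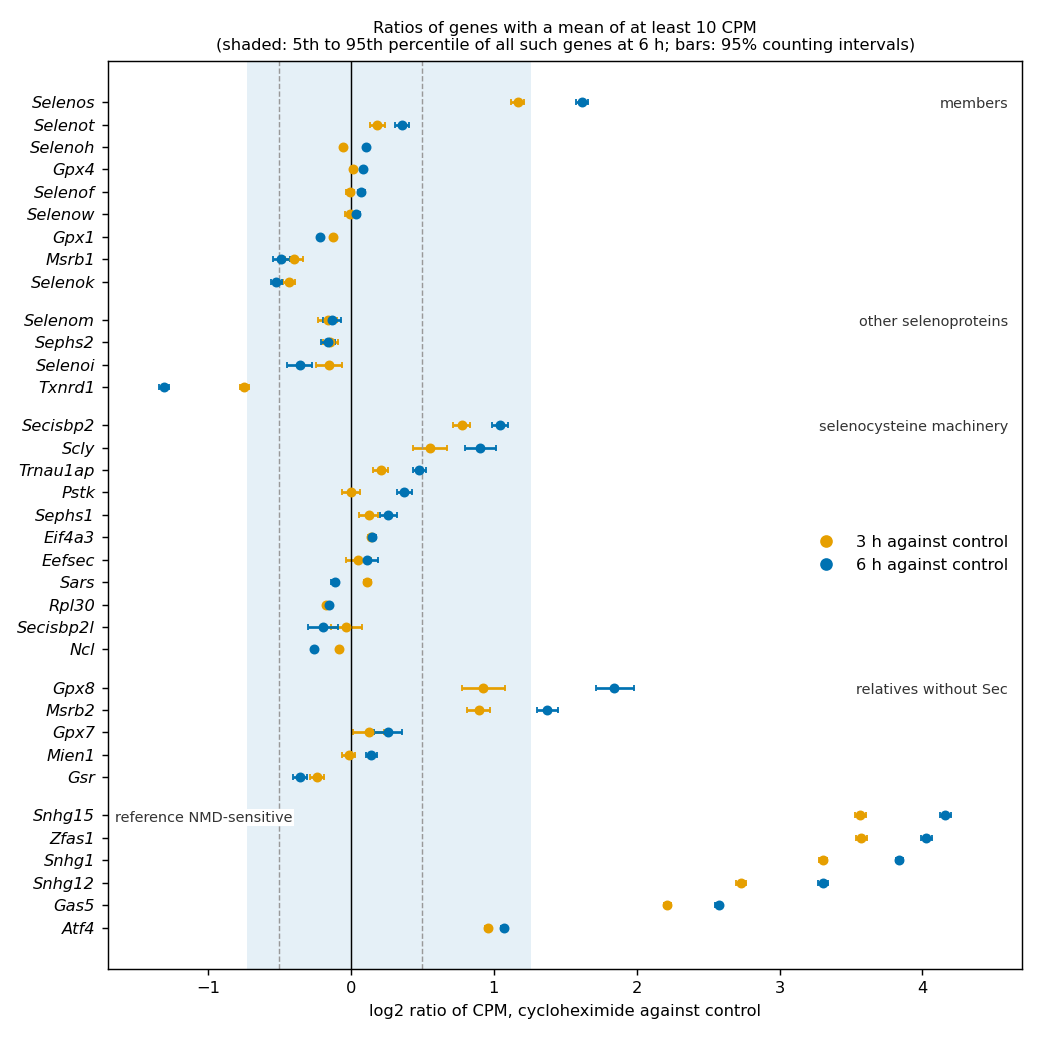
Log2 ratio of CPM to the control after 3 h and 6 h (horizontal axis) for the 9 members and the related genes above the floor, with 95% counting intervals; dashed lines mark 0.5 and -0.5, and shading spans the 5th to the 95th percentile of all genes after 6 h (-0.73 to 1.26). Among the members only Selenos after 6 h lies outside the shading, while the reference NMD-sensitive transcripts other than Atf4 lie far to its right. The same percentiles after 3 h, not shaded, were -0.42 and 0.95. The 3 h ratios of Selenos (1.17) and Selenok (-0.43) lie outside that narrower range.

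Related genes were described from lists of the same pathway. Of the 14 other selenoprotein genes, 4 passed the floor: Txnrd1, Selenoi, Selenom and Sephs2. None of the 4 was at or above 0.5 at either time, against 17.9% and 26.6% of all genes, and Txnrd1 was at or below -0.5 at both, against 3.21% and 9.69%. Txnrd1 (ENSMUSG00000020250), the cytosolic thioredoxin reductase and a target of the NRF2 antioxidant pathway, had 180 CPM in the control (180.3), 108 after 3 h and 73.0 after 6 h. Its log2 ratio was -0.74 after 3 h (-0.78 to -0.71) and -1.30 after 6 h (-1.34 to -1.27), the lowest of the 13 selenoprotein genes above the floor. Selenom, a thioredoxin-like protein of the endoplasmic reticulum, Selenoi, a phospholipid synthesis enzyme, and Sephs2, which makes the selenium donor, had 6 h ratios of -0.13, -0.36 and -0.16. Under the floor were Gpx2, Gpx3, Txnrd3, Dio1, Dio2, Dio3, Selenon, Selenoo, Selenop and Selenov. Dio1 and Dio2, deiodinases of thyroid hormone, had at most 3 UMIs in any library.

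Of 12 genes for selenocysteine synthesis, decoding or their regulation, 11 passed the floor, and 2 of the 11, Secisbp2 and Scly, were at or above 0.5 at both times. The shares of all genes were 17.9% and 26.6%. None of the 11 was at or below -0.5, against 3.21% and 9.69% of all genes. Secisbp2, which binds the selenocysteine stem-loop, had 34.7 CPM in the control, 59.4 after 3 h and 71.5 after 6 h, a log2 ratio of 1.04 after 6 h (0.99 to 1.10). Scly, which releases selenium from free selenocysteine, had 8.87, 13.0 and 16.6 CPM. It passed the floor only through the cycloheximide libraries, where it is high, so its count among the 11 carries no weight. Its 6 h ratio was 0.91 (0.80 to 1.02). Trnau1ap and Pstk, both acting on the selenocysteine tRNA, had 6 h ratios of 0.48 and 0.38, and Eefsec had 0.11. Sepsecs, which completes selenocysteine on its tRNA, lay just under the floor with 4.69, 10.0 and 14.2 CPM. The median of the 11 genes was 0.12 after 3 h and 0.15 after 6 h, beside 0.11 and 0.17 for all genes.

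Relatives that use cysteine, or that lack the selenocysteine of their family, gave a view of the same enzyme families without the UGA codon. Of 9 such genes 5 passed the floor, and Gpx8 and Msrb2 were at or above 0.5 at both times, against 17.9% and 26.6% of all genes. Msrb2, the mitochondrial counterpart of Msrb1, had 16.9 CPM in the control, 31.3 after 3 h and 43.7 after 6 h, a log2 ratio of 1.38 after 6 h (1.30 to 1.45) beside -0.49 for Msrb1. Gpx8, a peroxidase of the endoplasmic reticulum, had 5.07, 9.64 and 18.2 CPM and a 6 h ratio of 1.84. It passed the floor only through the 6 h library, where it is high, so its count among the 5 carries no weight. Gpx7, Mien1 and Gsr, the glutathione reductase, had 6 h ratios of 0.26, 0.14 and -0.36.

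Values for transcripts known to be NMD-sensitive are given for scale. The 6 reference transcripts, chosen with earlier results of these data known and so no support for a contrast, were Gas5, Snhg1, Snhg12, Snhg15, Zfas1 and Atf4. Each was at or above 0.5 at both times, and their median log2 ratio was 3.02 after 3 h and 3.57 after 6 h. Gas5, a host of small nucleolar RNAs, went from 174 CPM in the control to 809 after 3 h and 1036 after 6 h. The lowest of the 6 was Atf4, at 0.96 and 1.07. Selenos, at 1.17 and 1.62, lay above Atf4 at both times, and the other selenoprotein genes above the floor lay below it.

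**Figure D3:**
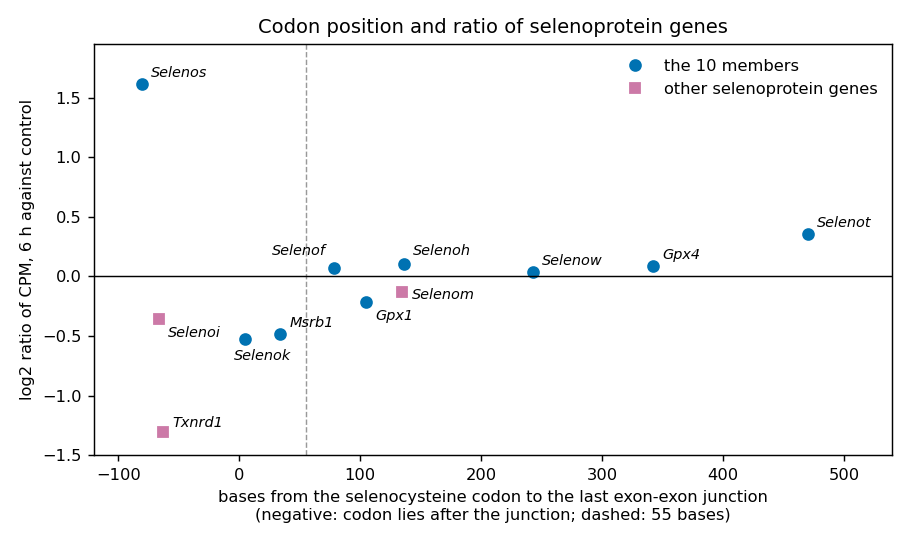
Log2 ratio of CPM after 6 h against control (vertical axis) by the number of bases from the selenocysteine codon to the last exon-exon junction (horizontal axis; the dashed line marks 55 bases) for the 12 spliced selenoprotein genes above the floor. The genes shown to the right of the line lie between -0.21 and 0.36, and the widest spread, from -1.30 for Txnrd1 to 1.62 for Selenos, is to its left. Genes under the floor, Txnrd2 among them, are not shown.

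The ratios were also set beside codon position. Over all 24 selenoprotein genes the codon lay more than 55 bases before the last junction in 14, of which 7 passed the floor (Gpx1, Gpx4, Selenow, Selenoh, Selenof, Selenot and Selenom). Of these 7, 0 were past 0.5 in either direction after 3 h, against 17.9% of all genes higher and 3.21% lower, or after 6 h, against 26.6% and 9.69%. Their median log2 ratio was -0.0088 after 3 h and 0.073 after 6 h, and their range after 6 h was -0.21 to 0.36. The floor left out Txnrd2, Gpx2, Gpx3, Dio1, Selenon, Selenop and Selenov from this set. After 6 h some of these were past 0.5, in both directions, with Txnrd2 at 0.71. The count of 0 therefore holds only above the floor. In the other 10 genes the codon lay closer to the junction or after it, or the gene has a single exon. Of these, 6 passed the floor (Selenok, Selenos, Msrb1, Txnrd1, Selenoi and Sephs2). After 3 h, 1 of the 6 was at or above 0.5 and 1 at or below -0.5, against 17.9% and 3.21% of all genes. After 6 h, 1 was at or above 0.5 and 2 at or below -0.5, against 26.6% and 9.69%. The range of these 6 genes after 6 h was -1.30 to 1.62 around a median of -0.42. These are descriptions of 13 genes in 3 libraries and no test was made of the split. Counting Msrb1 with the first set, by its other transcript, would leave that set without a gene past 0.5 by CPM above the floor. Under TMM factors, however, Msrb1 was past the limit after 3 h and 6 h, at -0.57 and -0.77. Relative to the all-gene median it was also past it, at -0.51 and -0.65. By its transcript at 28 bases, Selenof would fall in the second set.

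In single cells the share of barcodes with a UMI of the rarer members also differed between the libraries. Each cell was thinned to 15000 UMIs, so that depth was equal and no cell was left out. A Selenos UMI was found in 50.7% of control cells (exact interval 48.6 to 52.8), 79.4% after 3 h (77.4 to 81.2) and 89.0% after 6 h (87.7 to 90.1). Unthinned shares were 85.7%, 98.6% and 99.3%. The median was 1 UMI per cell in the control, 1 after 3 h and 2 after 6 h, and the 90th percentile was 2, 3 and 4. Cells with at least 4 Selenos UMIs made up 1.14%, 9.66% and 20.9%.

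**Figure D4:**
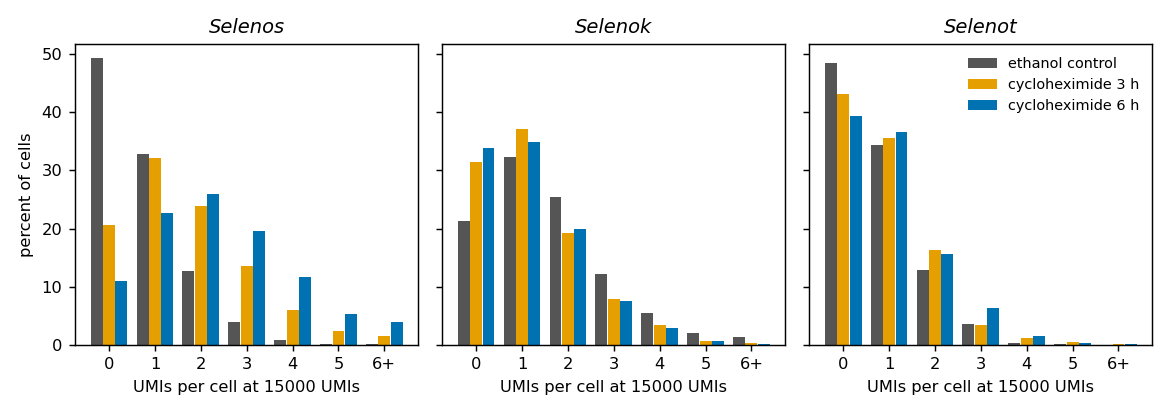
Percent of cells (vertical axis) by UMIs per cell after thinning to 15000 UMIs (horizontal axis, the last class holding 6 or more) for Selenos, Selenok and Selenot in the 3 libraries. The whole Selenos distribution moves right, from 49.3% of control cells without a UMI to 20.6% after 3 h and fewer after 6 h, while that of Selenok moves left.

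Selenok had a UMI in 78.6% of control cells (76.9 to 80.3), 68.5% after 3 h (66.2 to 70.7) and 66.2% after 6 h (64.3 to 68.0). Msrb1 had one in 45.5%, 36.5% and 34.1%, and Selenot in 51.4%, 56.8% and 60.7%. Unthinned, the shares were 97.9%, 95.7% and 94.8% for Selenok, 82.1%, 78.1% and 72.3% for Msrb1, and 87.1%, 90.5% and 92.4% for Selenot. The order of these thinned shares was the order of their CPM. Txnrd2 was found in 4.76% of control cells (3.90 to 5.73), 6.50% after 3 h and 7.24% after 6 h, and unthinned in 13.9%, 21.6% and 22.0%. Gpx1, Gpx4 and Selenoh had a UMI in at least 99.8% of thinned cells of every library, Selenof in 94.1 to 95.3% and Selenow in 90.7 to 92.2%. No cell type that should lack these genes is present for a background share, and free RNA held every member. Free RNA had 80.9, 61.1 and 67.8 CPM of Selenok and 37.0, 26.9 and 28.3 CPM of Msrb1, so the shares count barcodes with a UMI and not expressing cells.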

How the data were processed

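The deposited matrices hold unnormalized UMI counts for each gene in each barcode and were made by the authors with Cell Ranger 4.0.0 on mm10 per the submitters' processing notes. The annotation and the rule for reads shared between genes are not given in the sources used here. Each matrix listed 6794880 barcodes, so cells were selected here by the UMI and mitochondrial limits stated above. Those limits left out 62 control barcodes, 1 at 3 h and 8 at 6 h with under 1% mitochondrial UMIs, and 0 above 20%. Doublets were not removed.

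Counts were summed per library and scaled to CPM. Log2 ratios used a prior of 0.5 counts. Intervals are exact Poisson for levels, exact conditional binomial for ratios and Clopper-Pearson for shares. UMIs correct for amplification, but intervals still cover counting error only. Ratio and call functions were tested on simulated data. Of the gene identifiers, 32235 matched GENCODE M21 of GRCm38, the assembly of mm10, which gave codon positions, transcript sequences and coordinates. Alternatives were TMM factors (edgeR 4.0.16), mean UMIs per cell, and other limits on UMIs, mitochondrial share, free RNA, prior, floor and thinning. Python 3.11.15, numpy 2.4.6, scipy 1.17.1 and R 4.3.3 were used.

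The members, the related lists and the codon limit were chosen with earlier results of these data known. All members are named, and related genes are named with a ratio only above 10 CPM. A result bearing on Txnrd2 is not reported here.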

Additional observations from a re-analysis of the deposited data

Results flagged for a closer look

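Selenoh was lower than the control after 3 h, with a log2 ratio of -0.051 (-0.066 to -0.036), and higher after 6 h, with 0.10 (0.091 to 0.12). It was singled out because the signs at the 2 times are opposite and neither counting interval holds 0. Its log2 ratio between 6 h and 3 h was 0.16 (0.14 to 0.17), higher than for 68.8% of genes. With 1 library per time, that difference was not tested. The opposite signs depended on the scaling. Both ratios were negative under TMM factors (-0.23 and -0.18), and both were positive by mean UMIs per cell (0.22 and 0.21).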

How the results depend on the processing

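No paired analysis was possible because each group has 1 library, and for the same reason no replicate could be left out. For the 30 member ratios, minimums of 30000 or 5000 UMIs, a mitochondrial limit of 10% and a prior of 5 counts left every value within its counting interval. Selenos, Selenot, Selenok and Msrb1 kept their direction against the control under all 9 alternatives, as did Txnrd2.

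Signs turned as follows. Under TMM factors Gpx4 was -0.16 after 3 h, and after 6 h Gpx4 was -0.20, Selenow -0.25, Selenoh -0.18 and Selenof -0.21. Between 6 h and 3 h Gpx4 was -0.043, Selenow -0.066 and Selenof -0.035. By mean UMIs per cell Gpx1 was 0.15, Selenoh 0.22, Selenow 0.26 and Selenof 0.27 after 3 h, and between 6 h and 3 h Gpx4 was -0.093, Selenow -0.12, Selenoh -0.0055 and Selenof -0.085. With no lower mitochondrial limit Gpx4 was -0.041 and Selenof 0.011 after 3 h and Selenow -0.0087 after 6 h. Without barcodes above 2 times the median UMIs Gpx4 was -0.00019 after 3 h, and with 10% free RNA subtracted Selenow was 0.0092.

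The median of the 10 members was -0.0064 after 3 h, 0.079 after 6 h and 0.073 between the times. It became -0.18, -0.21 and -0.039 under TMM factors, 0.26, 0.19 and -0.089 by mean UMIs per cell, and -0.048 after 3 h with no lower mitochondrial limit. With Txnrd2, which is under the floor, included, 2 of the 10 members were at or above 0.5 at each time, and 1 under TMM factors. Members at or below -0.5 numbered 0 after 3 h and 1 after 6 h, but 2 and 2 under TMM factors. After 6 h they numbered 0 by mean UMIs per cell and 2 with no lower mitochondrial limit. Of all genes above the floor, 17.9% and 26.6% were at or above 0.5 by CPM, and 3.21% and 9.69% at or below -0.5. After 6 h, all genes at or below -0.5 numbered 737 by CPM and 1633 under TMM factors. They numbered 547 by mean UMIs per cell and 672 with no lower mitochondrial limit.

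Counts over all genes at or above 0.5 were 1361 after 3 h, 2023 after 6 h and 246 between the times. They became 823, 1076 and 115 under TMM factors, 347, 567 and 46 with a floor of 50 CPM, and 7332, 10060 and 5805 with no floor. By mean UMIs per cell they were 2822 after 3 h and 83 between the times. Counts at or below -0.5 were 244, 737 and 280. They became 618, 1633 and 470 under TMM factors, 68, 250 and 86 with a floor of 50 CPM, and 2679, 3149 and 2409 with no floor. By mean UMIs per cell they were 82 after 3 h and 607 between the times.

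List medians moved likewise. In the main setting the median of other selenoproteins was -0.16 after 3 h, -0.26 after 6 h and -0.11 between the times. For the machinery these values were 0.12, 0.15 and 0.060, and for relatives 0.13, 0.26 and 0.16. For reference transcripts the main median between the times was 0.50. The values below are those under the other settings. For other selenoproteins the median was -0.33 after 3 h and -0.54 after 6 h under TMM factors, 0.11 after 3 h by mean UMIs per cell, and -0.44 and -0.73 with a floor of 50 CPM. For the selenocysteine machinery it was -0.059, -0.14 and -0.052 after 3 h, 6 h and between them under TMM factors, 0.39, 0.26 and -0.10 by mean UMIs per cell, and after 6 h 0.019 with a floor of 50 CPM and 0.21 with no floor. For relatives it was -0.049, -0.026 and 0.047 under TMM factors, 0.40, 0.37 and -0.0023 by mean UMIs per cell, and -0.13, -0.11 and 0.020 with a floor of 50 CPM. For reference transcripts the median between the times was 0.38 under TMM factors and 0.33 by mean UMIs per cell. The count of 8 members with a UMI in at least 50% of cells stayed within 1.5 times at other depths. The cause of these moves was not tested.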

Other observations

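The 62 control barcodes left out for having under 1% mitochondrial UMIs had another makeup of selenoprotein transcripts. They were deep, with a median of 110694 UMIs, and held 6357765 UMIs in all. Gpx4 had 1261 CPM there (1233 to 1288) against 716 in the control cells kept, Gpx1 had 869 against 533, and Msrb1 had 77.9 (71.1 to 85.0) against 41.6. Selenot was lower, at 20.8 CPM (17.4 to 24.6) against 49.3, and Selenof at 168 against 209. Selenos had 38.7 CPM (34.0 to 43.8) against 49.7. These are 62 barcodes of 1 library, and what they are was not examined.

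Among pseudogenes of the members, Selenok-ps1 is listed in the matrices and had 8, 14 and 17 UMIs in the control, after 3 h and after 6 h, beside at least 8465 UMIs for Selenok.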
